A study of Mus musculus with 3 samples.

Results

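The chemokine system of the mouse epididymis was described through 47 of the 24335 gene symbols in a single-cell RNA-seq matrix. The members were taken by symbol alone: every Ccl and Cxcl ligand, every Ccr and Cxcr receptor, and Cx3cl1, Cx3cr1 and Ackr3. They comprise 18 CC ligands, 12 CXC ligands, 1 CX3C ligand, 15 receptors and the atypical receptor Ackr3. The cells came from untreated wild-type C57BL/6 mice aged 56 days, whose epididymis, the long duct that matures and stores sperm, was cut into caput (head), corpus (body) and cauda (tail). All 3 groups share this strain, age and lack of treatment, and differ only in region. Each region gave 1 library, prepared from tissue digested to single cells with lysis of red blood cells, and whether several animals were pooled was not given in the sources used here. No test was possible with a lone library in each region, so every regional difference below may equally be one of library, and p-values are not given.

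Chemokines are small secreted proteins that steer the movement of leukocytes through G-protein-coupled receptors, and they are grouped into CC, CXC and CX3C classes by the spacing of their first cysteines. Many ligands share a receptor, and many receptors bind several ligands. Atypical receptors such as Ackr3 bind and clear ligand without classical G-protein signalling. In the epididymis, macrophages and other leukocytes lie around and within an epithelium that tolerates sperm antigens, so the source of each ligand and the cell that carries its receptor are of interest.

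Cells with at least 200 detected genes were kept, which left 4939 caput, 4831 corpus and 4785 cauda cells. Depth differed between the libraries, with median UMIs (unique molecular identifiers, each counting 1 captured transcript) per cell of 5077, 2654 and 2198, and 3.38%, 28.5% and 25.9% of cells had over 20% mitochondrial UMIs. The libraries shared 13 to 19 cell barcodes in each pair. Cell types were gated on 143 detected markers, none of them a chemokine gene, and 7846 of 14555 cells (53.9%) received a class. Macrophages numbered 139, 214 and 418 in caput, corpus and cauda, or 2.81%, 4.43% and 8.74% of cells. Fibroblasts numbered 242, 489 and 1034, principal cells (the main absorptive and secretory epithelial type) 1894, 823 and 416, and basal cells 161, 64 and 31. T or NK cells numbered 12, 46 and 58, and monocytes or dendritic cells only 7, 36 and 21. No cell was gated as a neutrophil. Ungated cells numbered 1412, 2464 and 2416, so the gated counts do not give the composition of the regions. Unsupervised clusters gave 2365, 2594 and 802 principal cells, 286, 590 and 2759 fibroblasts, and 223, 438 and 671 macrophages. In whole libraries, fewer cells of a type and less RNA per cell cannot be told apart, so each regional result is followed into gated cells.

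Members' transcripts took a larger share of the RNA along the duct. The 47 genes summed to 674 CPM (UMIs of a gene per 1000000 UMIs of the same cells) in caput, 1678 in corpus and 4833 in cauda, from 27940, 35714 and 88044 UMIs, and 42, 45 and 44 of them were detected. A difference was counted where the CPM ratio was at least 2, its exact 95% interval excluded 1 and the higher region held at least 20 UMIs. These intervals, like all others here, cover counting error only. Of 36 members that met the count minimum between caput and corpus, 21 were higher in corpus, against 14.6% of all genes so tested, and 4 (Ccl28, Cxcl14, Cxcl15 and Cx3cl1) in caput, against 12.0%. Between caput and cauda, 30 of 38 were higher in cauda (all genes 21.3%) and 4 (Ccl27a, Ccl28, Cxcl15 and Cx3cl1) in caput (17.7%). Between corpus and cauda, 22 of 37 were higher in cauda (16.6%) and 2 (Ccl27a and Cxcl5) in corpus (12.6%). The median log2 ratio of caput over cauda was -2.94 over these members and 0.01 over all genes tested. Members reached the minimum mostly through the region where they were high, so these counts describe the libraries and are not evidence on the 47 as a set.

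**Figure D1:**
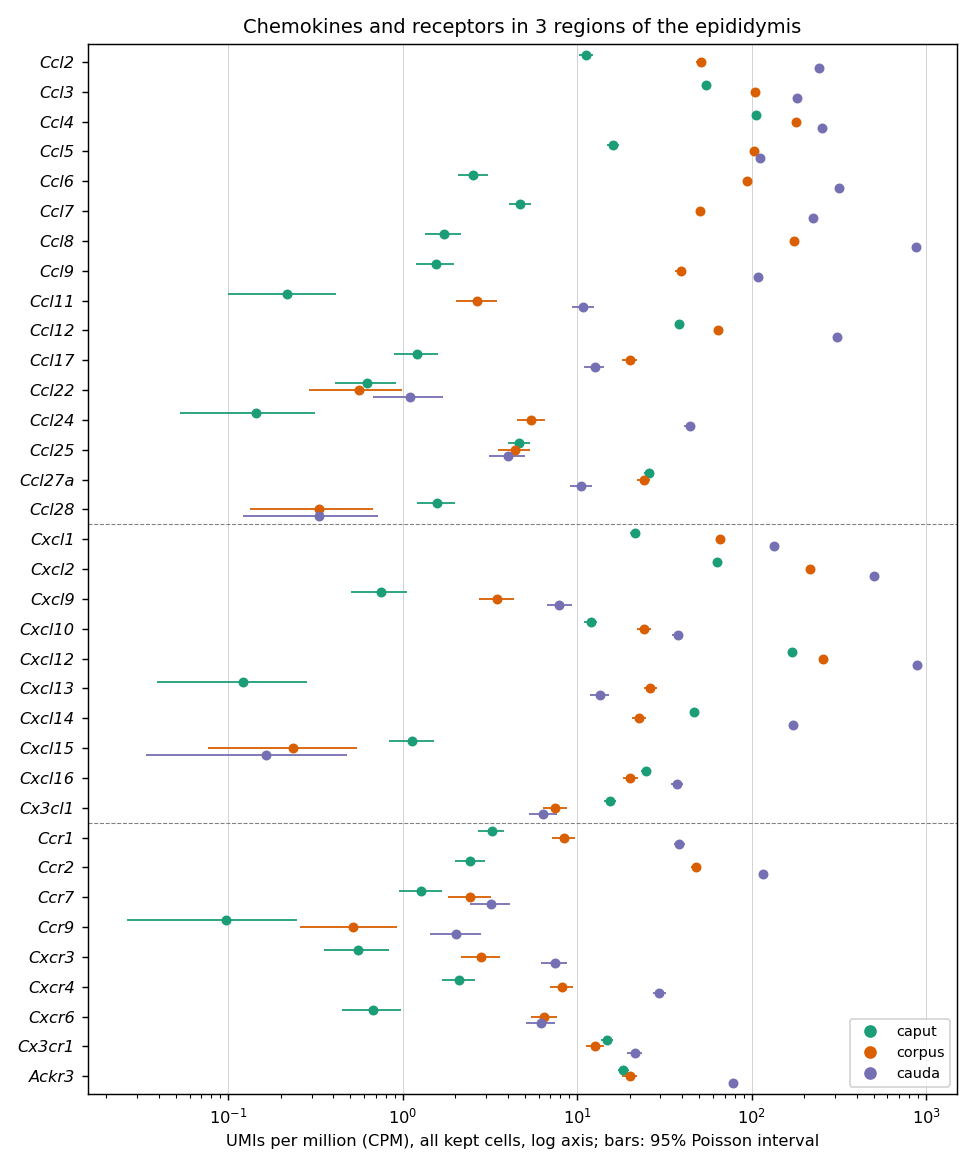
CPM of the members described by value (at least 50 UMIs) in whole libraries (log axis), with 1 point per region and bars for the exact Poisson 95% interval. Ccl8 runs from 1.71 in caput to 879 in cauda, while Cx3cl1 runs the other way, from 15.5 to 6.37.

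In whole libraries several CC ligands of myeloid cells were far lower in caput than in cauda. Ccl8 stood at 1.71 CPM in caput, 174 in corpus and 879 in cauda (71, 3707 and 16019 UMIs), Ccl6 at 2.53, 94.0 and 318, and Ccl24 at 0.145, 5.45 and 44.0. Ccl7 stood at 4.70, 50.7 and 225 CPM, Ccl2 at 11.2, 51.1 and 243, and Ccl9 at 1.54, 39.1 and 109. In each of these caput was lowest and cauda highest, with no overlap of intervals. The eosinophil attractant Ccl11 stood at 0.217, 2.68 and 10.8 CPM. Another order was seen for Ccl17, at 1.21, 20.02 and 12.6 CPM, and Cxcl13, at 0.121, 26.2 and 13.5 CPM, both highest in corpus.

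Of the other CXC ligands, Cxcl1 stood at 21.4, 65.4 and 135 CPM, Cxcl2 at 63.4, 215 and 505, Cxcl10 at 11.9, 24.2 and 37.6, and Cxcl9 at 0.748, 3.48 and 7.90. Cxcl12 stood at 170, 255 and 883 CPM, with the corpus over caput ratio under the size rule. Cxcl14 at 46.4, 22.6 and 172 CPM and Cxcl16 at 24.8, 20.2 and 37.3 CPM were lowest in corpus. Of the receptors, Ccr2 stood at 2.44, 47.8 and 116 CPM, Cxcr4 at 2.10, 8.18 and 29.6, Cxcr3 at 0.555, 2.82 and 7.41, and Ackr3 at 18.4, 19.97 and 78.4. Cxcr6 was level between corpus and cauda, at 6.44 and 6.20 CPM, above caput at 0.675. Ccr7 stood at 1.28, 2.44 and 3.18 CPM and Ccr9 at 0.0965, 0.517 and 2.03, on few UMIs. Ccl22 stood at 0.627, 0.564 and 1.10 CPM and Cxcl15 at 1.13, 0.235 and 0.165.

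The members were next assigned to source cells. Of the 37 members with at least 20 UMIs in gated cells, 23 had their highest CPM in an immune class (15 ligands and 8 receptors), 7 in fibroblasts or endothelium, 6 in an epithelial class and 1, Cxcl13, in haemoglobin-rich erythroid cells. Macrophages led 13 members, fibroblasts 6, T or NK cells 5, monocytes or dendritic cells 5 and ciliated cells 4. For 25 of the 37 the interval of the leading class did not overlap that of the next class. Among the 6 led by an epithelial class this held for 0. Members with fewer than 50 UMIs in all were Ccl1 (32), Ccl19 (47), Cxcl5 (34), Cxcl11 (11), Cxcl17 (3), Ccr4 (6), Ccr6 (11), Ccr8 (25), Ccr10 (33), Cxcr2 (24) and Cxcr5 (13).

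**Figure D2:**
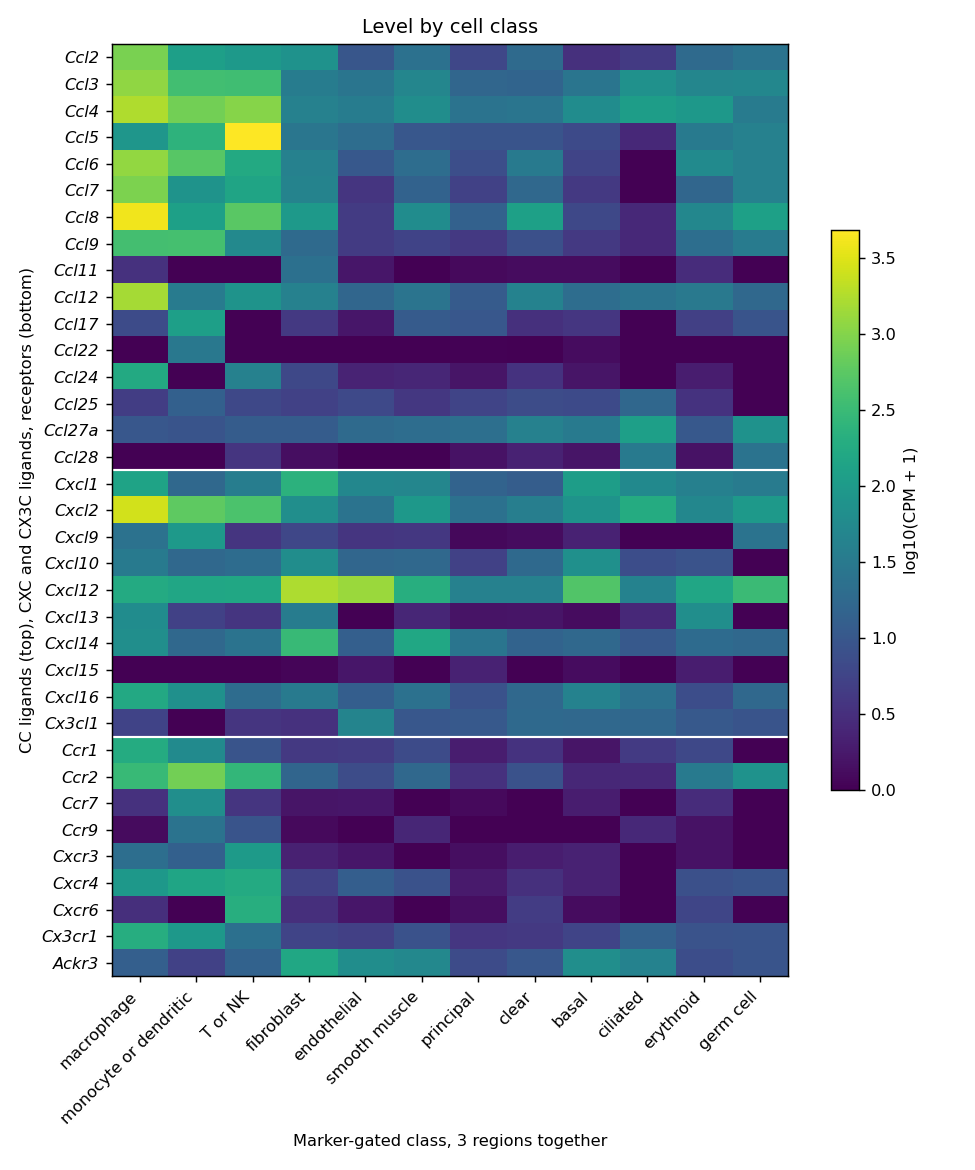
CPM of the named members (rows) in the 12 classes with at least 50 cells (columns), summed over the 3 regions, coloured by log10(CPM + 1), brighter for higher levels. The macrophage column is brightest for Ccl8, Ccl12 and Cxcl2, that of T or NK cells for Ccl5, and that of fibroblasts for Cxcl12 and Ackr3.

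RNA released from broken cells can reach other barcodes, so macrophage genes were measured in other classes beside the members. The complement genes C1qa, C1qb and C1qc, summed, stood in principal cells at 0.718%, 0.501% and 1.93% of their macrophage level in caput, corpus and cauda. Ccl8 stood there at 0.499%, 0.444% and 1.59% of its macrophage level, and Ccl12 at 0.631%, 0.347% and 2.25%. At a common depth of 1500 UMIs, 16.4% of cauda principal cells held a Ccl8 UMI, and the part of released RNA in this share was not tested. Ccl2, Ccl6 and Ccl7 stood in the same cells at 2.58%, 2.16% and 2.47%. In cauda clear cells, which acidify the lumen, Ccl8 stood at 8.40% and C1q at 3.81% of the macrophage level. Cauda T or NK cells carried C1q at 11.5% of the macrophage level, with Ccl8 at 21.1% and Ccl12 at 7.58%.

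Ccl8, Ccl6, Ccl9 and Ccl24 also differed by region within macrophages. Ccl8, a monocyte chemoattractant, counted 53 UMIs in caput macrophages, 2759 in corpus and 10806 in cauda, or 86.3, 3556 and 5545 CPM. Caput was low, and in it 48 of the 53 UMIs came from 1 of 139 cells. The ratio to caput was 41.2 (95% interval 31.4 to 55.1) in corpus and 64.25 (49.1 to 85.8) in cauda. At a common depth of 1500 UMIs, 2.16% of caput, 43.8% of corpus and 77.0% of cauda macrophages held a Ccl8 UMI (unthinned 2.16%, 45.3% and 85.6%), beside 0.158%, 2.26% and 16.4% of principal cells. Ccl6, a rodent CC chemokine of myeloid cells, stood at 74.9, 1219 and 1588 CPM (46, 946 and 3095 UMIs). Its ratio to caput was 16.3 (12.1 to 22.4) in corpus and 21.2 (15.9 to 29.0) in cauda. Ccl9, close to Ccl6 in sequence and position, stood at 21.2, 379 and 492 CPM, so caput was again below both other regions. Ccl24, an eosinophil attractant, had 2, 81 and 494 UMIs, or 3.26, 104 and 254 CPM. It was also 2.43-fold higher in cauda than in corpus macrophages.

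The monocyte attractants Ccl2 and Ccl7 followed with smaller ratios. Ccl2 stood at 254, 570 and 1198 CPM in caput, corpus and cauda macrophages, from 156, 442 and 2335 UMIs. Cauda exceeded caput by 4.72-fold (4.01 to 5.58) and corpus by 2.10-fold. Ccl7 stood at 213, 762 and 1161 CPM, 3.57-fold (2.95 to 4.35) and 5.44-fold (4.56 to 6.54) above caput. Ccl12, the third member of this monocyte-attracting group, was close to level in macrophages at 1317, 1239 and 1724 CPM, with a cauda over caput ratio of 1.31 (1.21 to 1.41). Its whole-library values of 38.2, 64.0 and 307 CPM were thus spread much wider than its values per macrophage RNA.

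Ccl3 and Ccl4, inflammatory attractants of monocytes and lymphocytes, ran the other way in macrophages. Ccl4 stood at 3234 CPM in caput, 1940 in corpus and 1202 in cauda, and caput exceeded cauda by 2.69-fold (2.53 to 2.86). Ccl3 stood at 1641, 1321 and 951 CPM, a caput over cauda ratio of 1.73 (1.60 to 1.86) that stayed under the size rule. In whole libraries the highest level of both was in cauda, with Ccl4 at 106, 180 and 252 CPM and Ccl3 at 54.6, 104 and 182 CPM.

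Counted over macrophage-gated cells, 9 of 23 members tested were higher in corpus than in caput (Ccl2, Ccl6, Ccl7, Ccl8, Ccl9, Ccl24, Cxcl9, Cxcl13 and Ccr2), against 9.56% of all genes, and 2 (Cxcl14 and Cx3cr1) in caput, against 10.3%. Between caput and cauda, 13 of 25 were higher in cauda (Ccl2, Ccl5, Ccl6, Ccl7, Ccl8, Ccl9, Ccl24, Cxcl1, Cxcl9, Cxcl12, Cxcl13, Ccr2 and Cxcr4), against 17.1% of all genes, and 3 (Ccl4, Cxcl16 and Cx3cr1) in caput (9.22%). Between corpus and cauda, 6 of 25 (Ccl2, Ccl5, Ccl24, Cxcl12, Cxcl14 and Ackr3) were higher in cauda (8.21%) and 0 in corpus (4.18%). Here too a member could reach the count minimum through the region where it was high alone, so these counts are not evidence on the members as a set. The calls of Cxcl9 and Cxcl13 rest on few cells. In corpus macrophages 26 of 27 Cxcl9 UMIs and 34 of 45 Cxcl13 UMIs came from 1 cell each. In cauda macrophages 1 cell held 20 of 50 Cxcl9 UMIs and 1 held 138 of 158 Cxcl13 UMIs. Of the 13 higher in cauda than caput, Cxcl12 had 473 UMIs in cauda macrophages and stood at 12.0% of its fibroblast level there. Fibroblast collagen RNA (Col1a1, Col1a2 and Col3a1) stood in the same cells at 8.49% of its fibroblast level, against 0.790% in caput, and its part in the Cxcl12 value was not tested. Macrophage-gated cells of different regions also fell into different unsupervised clusters, made without the members. This split was not particular to macrophages. Basal cluster 5, clear cluster 8 and fibroblast cluster 10 held 461, 632 and 282 caput cells and 0 cells of corpus or cauda. Of the 139 caput macrophages 124 lay in cluster 11, which held no corpus or cauda macrophages. Cluster 18 held 190 of 214 corpus and 358 of 418 cauda macrophages. Within the shared cluster 18, Ccl8 stood at 4003 CPM in corpus and 6238 in cauda, and in the caput cluster 11 at 109. The gate marker Mrc1, the mannose receptor of resident macrophages, differed likewise, at 221, 1290 and 2089 CPM over the gated cells.

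**Figure D3:**
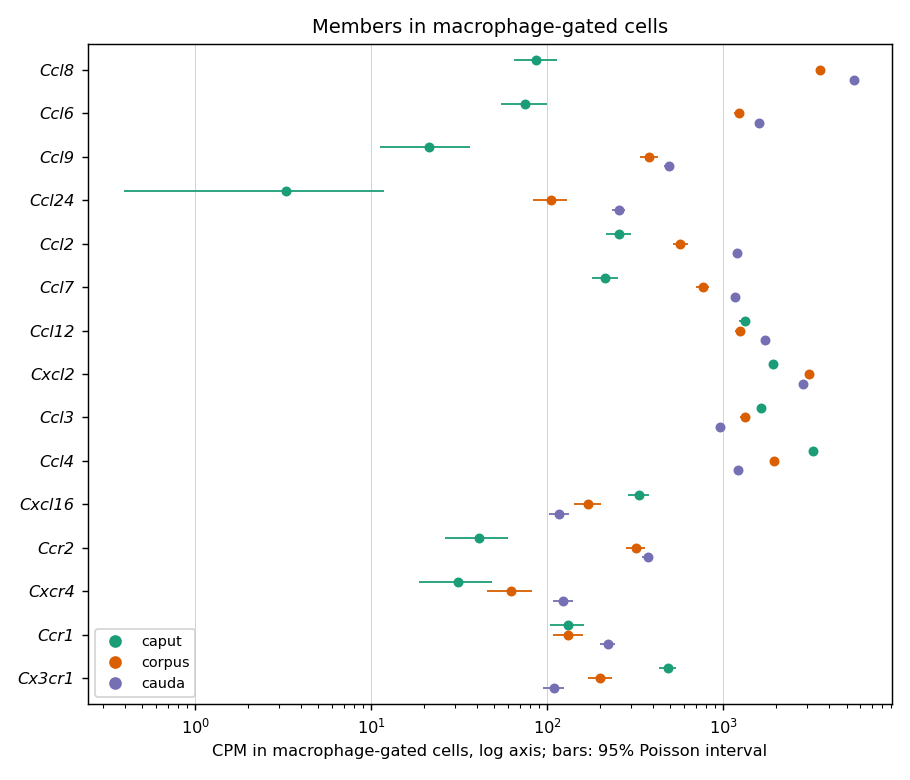
CPM of chemokine ligands and receptors in macrophage-gated cells (log axis), with 1 point per region (139 caput, 214 corpus and 418 cauda cells) and bars for the exact Poisson 95% interval. Caput lies far to the left for Ccl8 (86.3), Ccl6 (74.9) and Ccr2 (40.7) and to the right for Cx3cr1 (482).

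Genes induced by tissue digestion were summed as well, since several chemokines belong to early responses. The 12 genes of the dissociation stress list stood at 19979, 18608 and 26203 CPM in caput, corpus and cauda macrophages and at 14598, 17295 and 22825 CPM in fibroblasts, and none was at 0. In macrophages 2 of the 12 were higher in cauda than caput by the size rule, against 17.1% of all genes, and 0 differed between caput and corpus, where 9.56% of all genes were higher in corpus and 10.3% in caput. In fibroblasts 6 of 12 were higher in cauda than caput, against 9.99% of all genes, and 2 in corpus than caput, against 6.39%. The part of this stress in the ligand values was not tested. A list of 10 NF-kB response genes stood at 2553, 2901 and 2554 CPM in macrophages, where 0 of 9 tested differed between caput and corpus, and 1 of 10 was higher in caput than cauda, against 9.22% of all genes. A list of 10 interferon response genes stood at 334, 384 and 673 CPM, with 6 of 10 higher in cauda than caput, against 17.1% of all genes.

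Ccl5, which attracts T cells and monocytes, marked lymphocytes. It stood at 4817 CPM in T or NK cells (1788 UMIs), 20.3-fold above the next class, with 5733 CPM in corpus (830 UMIs, 46 cells) and 4761 in cauda (802 UMIs, 58 cells). The same cells carried Ccl4 at 1154 and 1069 CPM, and 22 of the 28 gated UMIs of Ccl1, a T cell product. Whole-library Ccl5 was 16.0, 104 and 112 CPM. Within macrophages Ccl5 stood at 52.1, 42.5 and 114 CPM, and 43 of the 223 cauda UMIs came from 1 cell. The log2 ratio of caput over cauda there was -1.13, and with 4 markers required for the gate it was 0.21, so its direction turned.

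Eotaxin, Ccl11, which recruits eosinophils, was a fibroblast transcript with 88.3% of its gated UMIs there, at 5.30, 21.9 and 25.3 CPM by region (6, 43 and 132 UMIs). Caput was lower than corpus by 4.12-fold (1.75 to 11.9) and than cauda by 4.78-fold (2.14 to 13.3). Ccl19, a ligand of Ccr7, had 28 of 32 gated UMIs in fibroblasts. Ccl17, which acts on Ccr4, had its highest CPM in monocytes or dendritic cells (119, from 29 UMIs), but 21 of those UMIs came from 1 cell. Principal cells held 311 Ccl17 UMIs, 44.1% of the total, spread over 222 cells. Their Ccl17 stood at 0.819 CPM in caput, 30.4 in corpus and 16.7 in cauda (19, 233 and 59 UMIs), and corpus exceeded caput by 37.1-fold (23.2 to 62.8). In corpus principal cells 155 of 823 held a Ccl17 UMI, and no cell held more than 5. At a common depth of 1500 UMIs the share was 4.52% of corpus principal cells (unthinned 18.8%) and 1.05% of corpus fibroblasts (unthinned 2.45%). Corpus smooth muscle stood at 95.4 CPM on 6 UMIs in 24 cells, above principal cells there in level. Ccl22, which shares the receptor of Ccl17 and lies beside it at chr8:94745590-94751699 (GRCm38), had 79.3% of its 58 UMIs in 5 cells.

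The CC ligands led by an epithelial class did not increase along the duct in whole libraries. Ccl27a, a ligand of Ccr10 known from skin epithelium, stood at 25.8, 24.1 and 10.5 CPM in whole libraries. Ciliated cells of the caput led it at 110 CPM (66 UMIs, 71 cells), above clear cells of the caput at 50.4 (79 UMIs). In principal cells it stood at 21.0, 24.0 and 19.0 CPM, with overlapping intervals. Ccl28, another Ccr10 ligand of mucosal epithelium, stood at 1.57, 0.329 and 0.329 CPM, and 19 of its 51 gated UMIs came from caput ciliated cells (31.7 CPM). Caput exceeded corpus by 4.77-fold (2.19 to 12.3) in the whole libraries, but ciliated cells numbered 71, 2 and 0. Ccl25, a ligand of Ccr9, was level at 4.65, 4.37 and 4.01 CPM. Ccl27a overlaps Il11ra1 and Ccl25 overlaps Elavl1 in the annotation, and whether reads were counted by strand was not given in the sources used here.

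Among CXC ligands, Cxcl1 and Cxcl2 are neutrophil attractants acting through Cxcr2, and Cxcl10 is an interferon- and NF-kB-inducible attractant of activated T cells. The bases upstream of these 3 starts are shown because these ligands, whose sources are compared next, hold a match to GGGANNTTC, a core of NF-kB sites, within 250 bases. Sequences are from RefSeq on GRCm38.p6, written 5′ to 3′ along the gene's strand, with the matching run in capitals. Cxcl1 and Cxcl2 lie side by side on the plus strand, at chr5:90890995-90891244 and chr5:90903649-90903898, and Cxcl10 on the minus strand at chr5:92348890-92349139.
Cxcl1: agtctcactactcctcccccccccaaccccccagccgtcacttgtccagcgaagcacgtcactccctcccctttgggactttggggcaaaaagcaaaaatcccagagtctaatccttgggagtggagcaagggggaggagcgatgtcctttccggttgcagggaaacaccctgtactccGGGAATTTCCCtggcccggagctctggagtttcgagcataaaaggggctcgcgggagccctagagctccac
Cxcl2: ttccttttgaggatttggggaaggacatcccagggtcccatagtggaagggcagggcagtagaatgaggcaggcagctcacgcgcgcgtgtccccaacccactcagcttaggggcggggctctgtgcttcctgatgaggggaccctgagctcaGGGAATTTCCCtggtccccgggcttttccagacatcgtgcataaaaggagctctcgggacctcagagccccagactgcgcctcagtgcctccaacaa
Cxcl10: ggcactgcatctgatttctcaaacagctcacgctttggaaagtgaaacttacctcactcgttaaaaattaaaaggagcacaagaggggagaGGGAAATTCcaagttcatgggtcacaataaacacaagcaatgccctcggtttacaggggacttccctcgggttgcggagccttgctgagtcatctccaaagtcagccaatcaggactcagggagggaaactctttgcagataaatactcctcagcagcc
Cxcl1 and Cxcl2 carry the same run, GGGAATTTCCC, which matches the motif on both strands in overlap, starting 71 and 97 bases before the start. In Cxcl10 the run begins 159 bases before the start. Of the 33 members with a promoter in the table, 6 held the motif on either strand (18.2%; the others were Ccl1, Cxcl9 and Cxcr2), against 1061 of all 32851 promoters (3.23%). The interferon-type motif GAAANNGAA was found on either strand in 7 (21.2%; Ccl1, Ccl3, Ccl19, Cxcl9, Cxcl10, Cxcl14 and Ccr2), against 7.13% of all promoters. In both counts members were taken by gene and the background by promoter, which are unlike units. The 33 members had 37 promoters, of which 6 held GGGANNTTC. Matches are descriptions of the letters in this window, and the motifs were searched with the expression values known.

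Although they share the run, Cxcl1 and Cxcl2 differed in source. Cxcl2 was a macrophage transcript, with 79.4% of its gated UMIs there, at 1915 CPM in caput, 3049 in corpus and 2820 in cauda. The ratios to caput, 1.59 (1.48 to 1.71) and 1.47 (1.38 to 1.57), stayed under the size rule. Cxcl1 had its highest CPM in fibroblasts (231), above macrophages (136). In fibroblasts it stood at 32.7, 311 and 244 CPM (37, 611 and 1272 UMIs), with caput below both other regions by 9.50-fold (6.82 to 13.6) and 7.47-fold (5.39 to 10.7). In basal cells, the flat epithelial cells at the base of the duct, Cxcl1 stood at 91.2, 137 and 172 CPM. Caput against corpus did not pass the size rule. The rule was not applied to cauda basal cells, which numbered 31, under the minimum of 50.

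Cxcl10 was spread over stroma and epithelium. Basal cells led at 70.1 CPM, with an interval overlapping that of fibroblasts at 63.5. Fibroblast Cxcl10 stood at 19.4, 79.8 and 66.9 CPM, and basal Cxcl10 at 43.0, 122 and 129 CPM, both lowest in caput. Clear cells showed the other order, 25.5, 11.3 and 7.36 CPM, on 40, 9 and 6 UMIs. Cxcl10 overlaps Art3 in the annotation. Cxcl9, which shares the receptor Cxcr3, had 249 UMIs, of which 36.1% came from 5 cells. In macrophages it counted 0, 27 and 50 UMIs, with 26 of the 27 in corpus from 1 cell.

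Cxcl12, the homeostatic ligand of Cxcr4 and Ackr3, had 69.1% of its gated UMIs in fibroblasts over the 3 regions summed. In caput, fibroblasts held 648 of its UMIs, fewer than endothelium (1489), basal cells (1059) or principal cells (837). Fibroblast Cxcl12 stood at 572 CPM in caput, 1505 in corpus and 2022 in cauda (648, 2961 and 10543 UMIs). Corpus exceeded caput by 2.63-fold (2.41 to 2.87) and cauda exceeded it by 3.53-fold (3.26 to 3.83). Endothelial Cxcl12 stood at 1165 CPM in caput (195 cells) and 2938 in corpus (37 cells), above fibroblasts in both with no overlap of intervals, so that the fibroblast lead held in cauda and over the 3 regions summed. Basal cells were an epithelial source, at 501, 305 and 767 CPM, and 94.9% of them held a Cxcl12 UMI. In caput that was 87.5% of the fibroblast level, while fibroblast collagen RNA stood in the same basal cells at 0.244% of its fibroblast level.

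Cxcl14, a constitutive chemokine of epithelium and stroma, did not follow the increase along the duct. In fibroblasts it stood at 299, 129 and 361 CPM (339, 254 and 1880 UMIs), so corpus was lowest, with caput 2.32-fold (1.96 to 2.74) above it. In principal cells it stood at 33.7, 7.43 and 17.9 CPM, and caput exceeded corpus by 4.53-fold (3.46 to 6.04). Smooth muscle cells held 167, 318 and 75.1 CPM on 72, 20 and 13 UMIs. Cxcl15, known from lung epithelium, was a low transcript of caput principal cells, with 38, 2 and 2 UMIs by region.

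Cxcl16, a membrane-bound ligand of Cxcr6, stood at 331, 170 and 116 CPM in macrophages, and caput exceeded cauda by 2.84-fold (2.34 to 3.44). In fibroblasts it was level, within 28.5 to 34.1 CPM over the 3 regions. Basal cells carried 40.2, 40.7 and 58.3 CPM, 12.2% of the macrophage level in caput, where C1q stood at 1.31%. Cx3cl1, the membrane-bound ligand of Cx3cr1, was led by endothelium at 48.5 CPM in caput (62 UMIs), and was low in clear, basal and principal cells. In principal cells it stood at 9.78, 8.61 and 12.2 CPM, and in clear cells at 15.9, 15.1 and 20.8 CPM. In both classes the intervals of the regions overlapped, whereas whole-library Cx3cl1 was lower in corpus and cauda, at 7.47 and 6.37 CPM. Basal cells stood at 18.4, 12.2 and 12.3 CPM, lower in corpus and cauda but with overlapping intervals. Ungated cells also showed lower values there, at 24.4, 8.42 and 5.83 CPM by region, as did fibroblasts at 9.71, 0.508 and 1.53. Endothelial cells numbered 195, 37 and 11 and held 67 Cx3cl1 UMIs, against 336 in principal cells. The cause of the lower whole-library values was not tested.

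Counted over fibroblast-gated cells, 9 of 17 members tested were higher in corpus than caput (Ccl2, Ccl6, Ccl7, Ccl8, Ccl11, Cxcl1, Cxcl10, Cxcl12 and Cxcl13), against 6.39% of all genes, and 1 (Cxcl14) in caput, against 7.10%. Between caput and cauda, 16 of 25 were higher in cauda (9.99%; the 9 named without Cxcl13, with Ccl9, Ccl12, Ccl24, Cxcl2, Cxcl9, Ccr2, Cxcr4 and Ackr3 added) and 1 (Ccl27a) in caput (7.79%). Between corpus and cauda, 9 of 25 were higher in cauda (5.03%) and 1 (Cxcl13) in corpus (4.15%). As in macrophages, the count minimum applied to the higher region, so these counts are not evidence on the members as a set. Ccl8 in fibroblasts counted 0, 84 and 690 UMIs and stood at 1.2% and 2.39% of its macrophage level in corpus and cauda, where C1q stood at 1.14% and 2.51%. In cauda fibroblasts Cxcl2, Ccl24, Ccl12 and Ccl6 stood at 2.80%, 3.18%, 3.45% and 3.53% of their macrophage levels. Ccl7 and Ccl2 stood there at 4.46% and 6.16%. C1q was at 74.2, 73.7 and 200 CPM in fibroblasts of caput, corpus and cauda. The part of macrophage RNA in these values was not tested. Ccl2 stood at 7.95, 112 and 73.8 CPM in fibroblasts, or 19.7% (16.7 to 23.2) of the macrophage level in corpus. Cxcl13, a B cell attractant, had 257 of its fibroblast UMIs in corpus, held by 20 cells, of which 1 held 73.

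**Figure D4:**
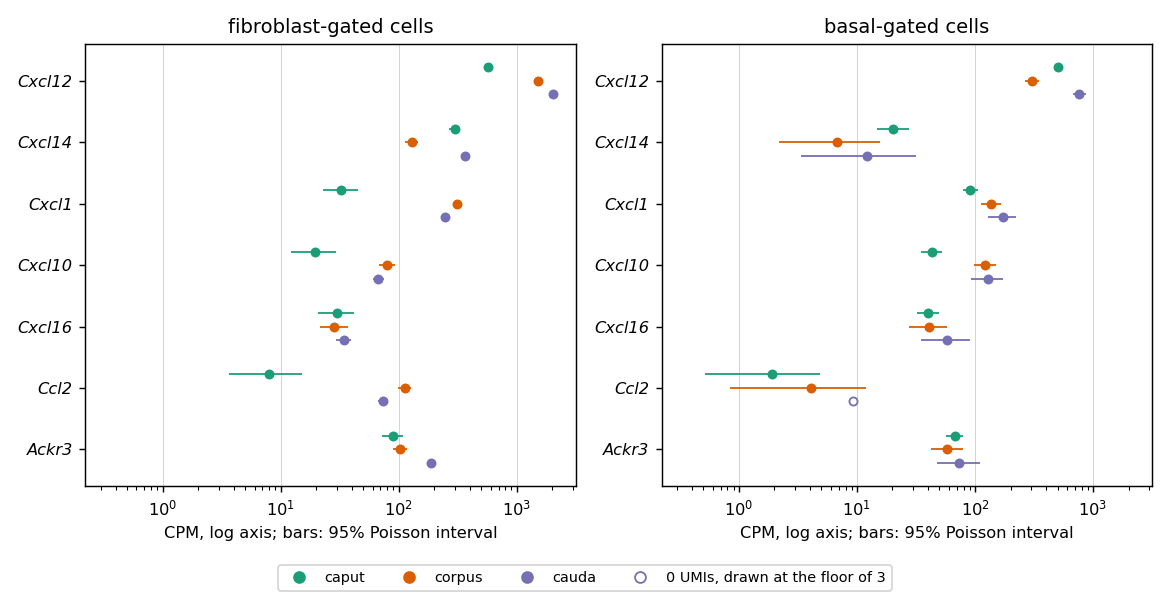
CPM of stromal chemokine genes in fibroblast-gated cells (left) and basal-gated cells (right) on log axes, with 1 point per region and bars for the exact Poisson 95% interval. An open circle marks 0 UMIs, drawn at the CPM of 3 UMIs. Fibroblast Cxcl12, Cxcl1 and Cxcl10 are lowest in caput, and basal cells show Cxcl12 at 305 to 767 and Ackr3 at 58.3 to 73.7.

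The levels of Cx3cr1 and Ccr2 in macrophages differed by region in opposite senses. Cx3cr1, the fractalkine receptor of resident macrophages and patrolling monocytes, stood at 482 CPM in caput macrophages, 200 in corpus and 109 in cauda (296, 155 and 212 UMIs). Caput exceeded corpus by 2.41-fold (1.98 to 2.95) and cauda by 4.43-fold (3.70 to 5.31). Ccr2, the receptor of Ccl2 and Ccl7 on monocytes and their descendants, stood at 40.7, 318 and 371 CPM (25, 247 and 723 UMIs), 7.82-fold (5.17 to 12.3) and 9.11-fold (6.12 to 14.2) above caput. At 1500 UMIs per cell, Cx3cr1 was seen in 54.0%, 25.4% and 12.2% of macrophages (unthinned 77.7%, 35.0% and 20.8%) and Ccr2 in 5.04%, 20.4% and 22.3% (7.19%, 26.6% and 29.7%). Principal cells showed 0.581%, 0.251% and 0.557% for Cx3cr1 and 0.106%, 1.13% and 2.79% for Ccr2. Thinning left out 0, 13 and 23 shallower macrophages. In whole libraries Cx3cr1 was nearly level, at 14.9, 12.7 and 21.3 CPM.

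Both receptors were also compared with Ccl8, and with each other, within macrophages of 1 region. In corpus, 22.7% of cells with a Cx3cr1 UMI held Ccl8, against 57.6% of those without, and in cauda 69.0% against 90.0%. Ccr2 gave 21.1% against 54.1% in corpus and 78.2% against 88.8% in cauda. A Ccr2 UMI was held by 25.3% of corpus cells with Cx3cr1 and 27.3% of those without. The same shares were 33.3% and 28.7% in cauda, and 6.48% and 9.68% in caput. Cluster 16 held 1 caput, 174 corpus and 212 cauda cells in all, of which 19 corpus and 27 cauda cells were macrophage-gated. In cauda those 27 gated cells stood at 1600 CPM for Ccr2, 3636 for Ccl6 and 1071 for Ccl9, with 177 for Ccl8 and 171 for Ccl12. In cluster 18 of the same region Ccr2 stood at 278, Ccl6 at 1497 and Ccl8 at 6238 CPM. Gated monocytes or dendritic cells had Ccr2 at 803 CPM (196 UMIs, in 50 of 64 cells), above macrophages at 298, and 46.3% of all Ccr2 UMIs lay in ungated cells.

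Ccr1, a receptor of Ccl3, Ccl6 and Ccl9, stood at 130, 131 and 220 CPM in macrophages, and did not pass the size rule there. Its whole-library values were 3.23, 8.36 and 38.5 CPM, so its regional spread was wider in the libraries than in the macrophages.

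Cxcr6, Cxcr3 and Cxcr4 had their highest CPM in T or NK cells over the 3 regions summed. These cells held 54.8%, 26.6% and 12.5% of the gated UMIs of Cxcr6, Cxcr3 and Cxcr4. Macrophages held more UMIs of Cxcr3 (67) and Cxcr4 (306) than T or NK cells did (37 and 66). Cxcr6, the receptor of Cxcl16 on tissue T and NK cells, stood at 199 CPM in T or NK cells (74 UMIs), 40.7-fold above the next class, with 221 CPM in corpus and 184 in cauda. Cxcr3, the receptor of Cxcl9 and Cxcl10, stood there at 99.7 CPM (37 UMIs), with 62.2 in corpus and 148 in cauda on 9 and 25 UMIs, whose intervals overlap. Cxcr4, the receptor of Cxcl12, stood at 178 CPM in T or NK cells, not separable from monocytes or dendritic cells at 147. In macrophages it stood at 30.9 CPM in caput, 61.9 in corpus and 123 in cauda, and cauda exceeded caput by 3.96-fold (2.48 to 6.70). Ccr7, which guides dendritic cells to lymph nodes, had 163 UMIs, of which 49.1% came from 5 cells and 64.4% lay in ungated cells. Ccr9 had 52 UMIs, 51.9% of them in 5 cells.

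Ackr3, the scavenging receptor of Cxcl12, was led by fibroblasts at 153 CPM over the 3 regions summed, above basal cells at 65.7. Fibroblast Ackr3 stood at 89.2, 103 and 186 CPM (101, 203 and 971 UMIs), and cauda exceeded caput by 2.09-fold (1.70 to 2.59). Basal Ackr3 was level, at 67.1, 58.3 and 73.7 CPM, and caput endothelium carried 67.3. Lymphatic endothelial cells, few in number, held 135 CPM in corpus (20 UMIs, 24 cells).

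Ligands were set beside their receptors in 29 textbook pairs, 25 of them with both genes in the matrix and 15 with both past the minimum of 20 gated UMIs. With leading classes taken over the 3 regions summed, both genes had the same one in 5 of the 15. Among these, macrophages led both sides of Ccl3 with Ccr1 and of Ccl6 with Ccr1, and fibroblasts led both sides of Cxcl12 with Ackr3, although endothelium led Cxcl12 in caput and corpus. The other 10 joined different leading classes. Among them, endothelial Cx3cl1 faced macrophage Cx3cr1, macrophage Cxcl16 faced T or NK Cxcr6, macrophage Ccl2 and Ccl7 faced monocyte or dendritic Ccr2, fibroblast Cxcl12 faced T or NK Cxcr4, and basal Cxcl10 faced T or NK Cxcr3. T or NK cells led Cxcr3 and Cxcr4 in level but held 26.6% and 12.5% of their gated UMIs. Monocytes or dendritic cells led Ccr2 in level but held 11.9% of its gated UMIs. Macrophages led Ccr2 under a gate of 4 markers and by clusters, where the monocyte or dendritic class was under the minimum of 50 cells. For several ligands the receptor was near the limit of detection. Ccr8, the receptor of Ccl8, had 25 UMIs in all cells, and the ligand had 19797. Cxcr2 had 24 UMIs, Cxcl1 4740 and Cxcl2 16412. Ccr4 had 6 and Ccr10 33. Shared RNA levels show neither contact between the cells nor signalling.

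Other genes of the chemokine system were taken from a list of 18. Over macrophages, 1 of 9 tested was higher in corpus than caput and 1 lower, against 9.56% and 10.3% of all genes. Between cauda and caput, 1 of 11 was higher in cauda and 1 lower, against 17.1% and 9.22%. The first was Pf4, a CXC chemokine under another name, at 594, 1941 and 3098 CPM in caput, corpus and cauda macrophages. The second was Rgs1, a brake on chemokine receptor signalling, at 2645, 820 and 580 CPM. Ccrl2, which binds chemerin, was level at 541, 428 and 432 CPM. Xcl1, a lymphocyte chemokine, stood at 412 CPM in T or NK cells and its receptor Xcr1 at 57.4 in monocytes or dendritic cells. Of the scavenging receptors, Ackr4 was led by clear cells at 178 CPM, above basal cells at 96.6, and Ackr1 by endothelium at 55.6 CPM.

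Several members are neighbours in the genome (GENCODE M21 on GRCm38). Ccl2, Ccl7, Ccl11, Ccl12, Ccl8 and Ccl1 lie in this order on chromosome 11, from 82035571 to 82305690. Within it, macrophage cauda over caput ratios ran from 1.31 for Ccl12 to 64.25 for the next gene, Ccl8. A second group on chromosome 11, from 83525778 to 83664683, holds Ccl5, Ccl9, Ccl6, Ccl3 and Ccl4. There Ccl9 and Ccl6 were higher in cauda than caput macrophages, by 23.2-fold (13.5 to 43.8) and 21.2-fold, whereas Ccl4 was higher in caput. Ccr9, Cxcr6, Ccr1 and Ccr2 share chromosome 9, from 123678439 to 124113557. Between caput and cauda macrophages Ccr2 passed the size rule and Ccr1 did not. Ccr9 and Cxcr6 had 0 UMIs in caput macrophages and 1 and 2 in cauda, under the minimum of 20, so they were not tested.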

How the data were processed

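Single-cell RNA of caput, corpus and cauda epididymis was measured with the Singleron GEXSCOPE kit, per the labels. The authors deposited whole-number UMI counts per gene and cell, with no normalization. Reads were aligned to GRCm38.p6 with STAR 2.7.3a and UMIs handled with UMI-tools, per the submitters' processing notes, and use of strand in counting was not given in the sources used here. Before filtering there were 4961, 4959 and 4925 cells in caput, corpus and cauda, and the kept cells totalled 41462261, 21279926 and 18218645 UMIs. A count of 0 allows up to 3 UMIs (0.0724, 0.141 and 0.165 CPM).

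Members, gene lists, markers and motifs were chosen with earlier results of these data known. Members with at least 50 UMIs are named with values and the rest with their totals, except that 1 member is not reported here, though counts over members include it. A marker counted in a cell where its UMIs exceeded those of free RNA (Poisson probability under 0.01). Each cell was given the class whose markers counted in the largest proportion, if at least 3 did, and was left out as mixed where an unrelated class reached 50% of that share. This left 6709 cells mixed or ungated, and no doublet caller was run. UMIs were summed per region and class (cells are not replicates) and given as CPM with exact Poisson intervals, shares with Clopper-Pearson intervals and ratios with exact conditional binomial intervals. A zero entered a ratio as 3 UMIs over the region, and thinning drew 1500 UMIs per cell. Clusters came from scanpy 1.11.5 and igraph 0.11.9 (2000 variable genes, 30 components, 15 neighbours, Leiden resolution 1) without the members. Python 3.11.15, numpy 2.4.6, scipy 1.17.1, pandas 2.3.3, matplotlib 3.10.9 and R 4.3.3 with edgeR 4.0.16 (TMM factors only) were used. The size rule was tested on simulated data. Alternatives changed the scaling, the cells, the gate and the thresholds.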

Additional observations from a re-analysis of the deposited data

Results flagged for a closer look

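Cxcl10 differed between caput and the other regions in opposite directions in different cell classes. Its caput over corpus ratio was 0.243 in fibroblasts and 0.353 in basal cells, but 2.25 (95% interval 1.08 to 5.28) in clear cells. Its caput over cauda ratio was 0.290 in fibroblasts and 3.47 (1.46 to 10.0) in clear cells. The clear-cell values rest on 40, 9 and 6 UMIs in caput, corpus and cauda. Each region has 1 library, so the difference between the classes was not tested.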

How the results depend on the processing

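Every alternative was run on the counts of members past the size rule and on each called ratio. Of 83 called ratios in whole libraries, 33 in macrophages and 37 in fibroblasts, each was recomputed under the settings that apply to it, giving 581, 297 and 296 values. The direction held in 581, 296 and 296 of them, and 566, 287 and 288 still passed the rule. The exception was Ccl5 in macrophages, caput over cauda, at -1.13 on the log2 scale and 0.21 under a gate of 4 markers; the cause was not tested. Requiring a ratio of 4 whose interval excludes 2 lowered the counts from 25 to 16 (caput against corpus) and 24 to 8 (corpus against cauda) in whole libraries, from 16 to 10 (caput against cauda) and 6 to 1 (corpus against cauda) in macrophages, and from 17 to 8 and 10 to 5 in fibroblasts. A minimum of 100 UMIs lowered caput against corpus from 11 to 7 in macrophages and from 10 to 6 in fibroblasts, and the members led by an epithelial class from 6 to 3, since fewer members were tested. Macrophages taken by cluster gave 10 instead of 6 between corpus and cauda. The leading class was the same in every setting for 25 of 37 members and changed in some for 12 (Ccl9, Ccl17, Ccl27a, Cxcl5, Cxcl9, Cxcl12, Cxcl13, Cxcl14, Cxcl15, Cx3cl1, Ccr2 and Ccr7). Leaving out shared barcodes was chosen after seeing the data. No paired analysis was possible because each region has 1 library.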

Other observations

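Some members owed their UMIs to very few cells. Of the 809 Cxcl13 UMIs, 50.7% came from 5 cells, of which 1 cauda macrophage held 138 and 1 corpus erythroid-gated cell 124. Of the 32 Ccl1 UMIs 87.5%, and of the 11 Cxcl11 UMIs 90.9%, came from 5 cells. Ccr7 had 16 of its 57 gated UMIs in 1 caput cell of the monocyte or dendritic gate and 27 ungated UMIs in another caput cell.

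In caput basal cells, Cxcl2 stood at 96.0 CPM (203 UMIs), 5.01% of its macrophage level, beside C1q at 1.31%, and it was 2.44-fold higher than in corpus basal cells.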
